A study of Mus musculus with 7 samples.

Results

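The oocytes of the mouse ovary 1 day after birth (P1) were taken as the cells of the P1 library with at least 1000 detected genes, at least 4 transcripts of the germ cell genes Dazl and Ddx4 together, and at most 3 transcripts of Kitl and Wnt6, which mark the somatic supporting cells. Of 6409 cell barcodes at P1, 4997 had at least 1000 genes, 225 of these reached the germ cell threshold, 4 were over the somatic limit, and 221 were kept as oocytes. They were 4.42% of the P1 cells with at least 1000 genes (3.87 to 5.03%), and 221 of the 4310 cells that the same thresholds took from all 7 libraries, which hold 52542 barcodes. Within them, 54 cells had 10 or more transcripts of Ooep, Zp3 and Padi6 together and are called maternal-high here, and the other 167 are called maternal-low.

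The study followed ovarian cells from E11.5 to P5 by droplet single-cell RNA sequencing, in 7 libraries of 1 age each, 5 before birth and 2 after it. All animals were wild-type C57BL/6J mice that received no treatment, and E18.5 fetuses and pups of P1 and P5 are used below. The paper reports that several gonads or ovaries were sequenced, while the labels speak of an individual ovary. Ovaries were dissociated with trypsin, for 1 h at E18.5 and 80 min at P1 and P5. The number of animals behind the oocytes of a library is not known from the cells. A transcript is 1 unique molecular identifier (UMI), and a level is a gene's share of the UMIs summed within a class of cells, given per 1000000 (CPM). The P1 library held 52076402 UMIs, of which 5891733 were in oocytes, 2575091 in maternal-high and 3316642 in maternal-low cells. With 1 library per age there was no replicate and no test was made: values carry 95% exact intervals (Poisson for a level, binomial for a share, conditional on the summed UMIs for a ratio), which cover counting error only, and age and library cannot be told apart.

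Around birth, mouse oocytes finish the pachytene stage, arrest in the diplotene stage of meiotic prophase, and are enclosed one by one by pregranulosa cells as primordial follicles. The synaptonemal complex, which joined the homologous chromosomes, is taken apart, and the oocyte begins to store maternal products that serve only later: the egg coat (zona pellucida) proteins, the subcortical maternal complex needed by the early embryo, and secreted growth factors. FIGLA, a helix-loop-helix factor that binds E-boxes, and the homeobox factor NOBOX are required for this program.

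The stretches before the transcription starts of the 3 genes whose transcripts split the class, and of Oas1h and Ldhb, which led among the genes the split did not use, are shown because FIGLA and NOBOX act at such sites. They come from RefSeq on GRCm38.p6 and run 5′ to 3′ in the sense of the gene. The window was 250 bases before the start, and only the bases outside the gene's own GENCODE model are printed. Capitals mark E-boxes (CANNTG, which reads alike on both strands) and NOBOX elements (TAATTG or its complement CAATTA); the 2 patterns overlap nowhere in these windows. The stretches lie at chr9:78378726-78378838 on the minus strand for Ooep, chr5:135979855-135980098 on the plus strand for Zp3, chr4:140742644-140742893 on the minus strand for Padi6, chr5:120861172-120861420 on the plus strand for Oas1h, and chr6:142507958-142508207 on the minus strand for Ldhb.
Ooep: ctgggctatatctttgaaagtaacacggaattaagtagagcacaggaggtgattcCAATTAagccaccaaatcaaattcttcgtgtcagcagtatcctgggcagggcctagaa
Zp3: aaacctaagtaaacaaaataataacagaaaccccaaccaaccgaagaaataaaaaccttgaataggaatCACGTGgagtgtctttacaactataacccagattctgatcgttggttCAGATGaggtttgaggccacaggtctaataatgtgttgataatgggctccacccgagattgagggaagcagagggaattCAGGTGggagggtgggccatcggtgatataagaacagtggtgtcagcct
Padi6: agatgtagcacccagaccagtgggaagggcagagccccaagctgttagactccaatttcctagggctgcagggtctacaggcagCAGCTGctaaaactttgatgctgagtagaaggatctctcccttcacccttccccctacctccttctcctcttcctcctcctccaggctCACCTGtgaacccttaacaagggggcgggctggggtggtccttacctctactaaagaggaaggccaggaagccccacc
Oas1h: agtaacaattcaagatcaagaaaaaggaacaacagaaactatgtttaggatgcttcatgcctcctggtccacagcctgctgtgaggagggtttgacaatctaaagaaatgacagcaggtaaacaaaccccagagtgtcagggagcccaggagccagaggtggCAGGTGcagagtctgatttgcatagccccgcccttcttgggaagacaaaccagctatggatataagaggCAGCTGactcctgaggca
Ldhb: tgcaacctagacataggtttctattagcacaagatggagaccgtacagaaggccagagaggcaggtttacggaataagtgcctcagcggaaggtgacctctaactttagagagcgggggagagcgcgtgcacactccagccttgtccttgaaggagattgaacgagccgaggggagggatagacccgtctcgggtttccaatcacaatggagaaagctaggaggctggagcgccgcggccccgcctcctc
Zp3 held 3 E-boxes, 181, 134 and 55 bases before its start, and Padi6 held 2, at 166 and 78 bases. Oas1h held 2, at 88 and 19 bases, and Ldhb held neither pattern. Ooep had 1 NOBOX element 195 bases before its RefSeq start and 1 E-box at 78 bases, which falls in the 137 bases that lie inside the longer GENCODE model and are not printed. Of 32851 RefSeq windows of this length, 66.2% held CANNTG, 12.2% held it at least 3 times, and 7.17% held TAATTG or CAATTA, so an E-box is common in such windows. Khdc3, Tle6, Sycp2, Hormad1 and Ccnb3 also had a window. Hormad1, Sycp2 and Ccnb3, which were lower in maternal-high cells (below), held E-boxes too: Hormad1 3, as Zp3 did, and the others 1 each. Khdc3 held 5, and Tle6 2 or 4 by its start site. Gdf9, Nlrp14, Npm2 and Dppa3 are named only.

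The class label was checked on the 5 markers. Dazl and Ddx4, RNA-binding and RNA helicase proteins of germ cells, belong to the selection, and had a UMI in 100% and 85.1% of the 221 oocytes. Figla was detected in 97.7% of oocytes, Sohlh1, another helix-loop-helix factor of oocytes, in 93.7%, and Ooep, a subunit of the subcortical maternal complex, in 70.1%. In the 1532 stromal cells of the same library the shares were 7.70% for Figla, 3.39% for Sohlh1 and 0.914% for Ooep, at a median of 7081 UMIs per cell against 22694 in oocytes. The 3 markers that the oocytes were not selected on were thus above their shares in stromal cells, where the source of these transcripts was not tested. Ooep was also found in 7.10% of the 1296 pregranulosa cells (median 8380.5 UMIs). After each cell was thinned to 5000 UMIs, Figla was found in 99.0% of oocytes and 5.67% of stromal cells, Sohlh1 in 87.6% and 2.11%, and Ooep was found in 38.3% of oocytes, 3.45% of pregranulosa and 0.581% of stromal cells.

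Maternal transcripts went with the depth of a cell. Maternal-high cells held 16703 to 84037 UMIs (median 44661) and a median of 6499.5 genes, and maternal-low cells 1595 to 64913 UMIs (median 18391) and 4435 genes. The ranges overlapped, and 16 of the 167 maternal-low cells were at or above the lower quartile of the maternal-high cells (38737.8 UMIs). At the other end, 28 maternal-low cells held under 5000 UMIs. The paper scored a cluster of germ cells with reduced UMI counts, from E16.5 to P1, as nurse or dying cells. Such cells were not set apart here, and their part in the maternal-low class was not tested. Over the 221 cells, Spearman's rho between the UMIs of a cell and its Ooep, Zp3 and Padi6 UMIs was 0.742, a description in which both measures share the depth of the cell. The split by a fixed number of UMIs therefore sorted cells by depth as well. Thinned to 5000 UMIs, with 28 shallower oocytes left out, 14 of 193 cells (7.25%, 4.02 to 11.9%) had 5 or more maternal UMIs, against 54 of 221 (24.4%, 18.9 to 30.6%) with 10 or more unthinned. Ratios of the leading genes between the classes are therefore also given from the cells of 20000 to 60000 UMIs alone, which are 41 maternal-high and 72 maternal-low cells with a depth ratio of 1.46 in place of 2.43.

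**Figure D1:**
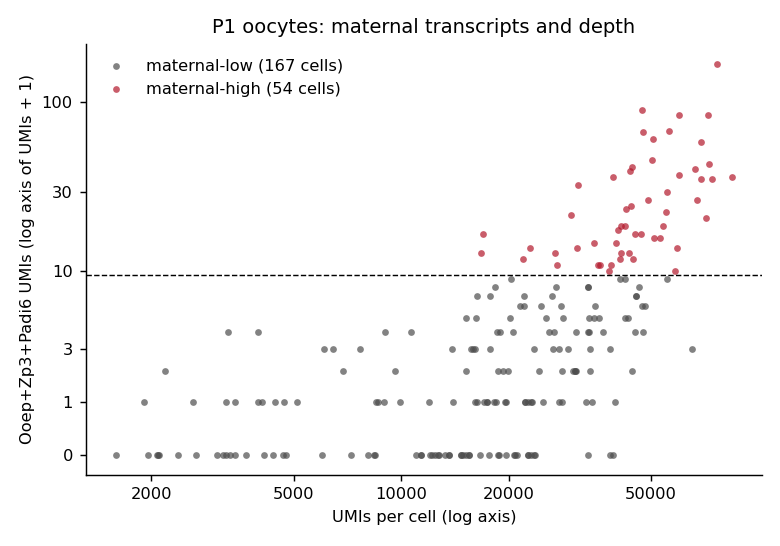
UMIs of Ooep, Zp3 and Padi6 together (y axis, log axis of UMIs + 1) against the UMIs of the cell (x axis, log axis) for the 221 P1 oocytes, 1 point per cell, colored by class, with a dashed line under the threshold of 10 UMIs. Maternal-high cells begin at 16703 UMIs, and maternal-low cells reach 64913.

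Among the 3 genes of the split, Ooep ran from 1 to 54 UMIs per maternal-high cell (median 9) and from 0 to 9 per maternal-low cell (median 1). Zp3, the sperm-binding glycoprotein of the egg coat, ran from 0 to 92 (median 5) and from 0 to 6 (median 0). Padi6, a protein of the egg's cytoplasmic lattices, ran from 0 to 46 (median 6) and from 0 to 4 (median 0). These values chose the classes and are given as a description. All 3 genes were detected in 41 of the 54 maternal-high cells. At the threshold, the 9 cells with 10 to 12 maternal UMIs had a median of 38165 UMIs, with Gdf9 at 41.0 CPM, Figla at 1756 CPM and Sycp3 at 2019 CPM. The 15 cells with 7 to 9 had a median of 33373 UMIs, with Gdf9 at 24.5 CPM, Figla at 1590 CPM and Sycp3 at 1950 CPM, and the depths of the 2 sets overlapped. At the germ cell threshold, the 20 oocytes with 4 or 5 UMIs of Dazl and Ddx4 had a median of 3827 UMIs, and the 19 cells with 2 or 3, which were left out, had 6302 UMIs and Figla at 394 CPM. At the other 2 thresholds there were 8 oocytes with fewer than 1200 genes and 0 otherwise fitting cells with at least 800 but fewer than 1000, and 12 oocytes with 2 or 3 UMIs of Kitl and Wnt6 against the 4 cells over the limit.

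The library and the cells were examined for other sources of RNA. The summed pregranulosa markers were at 42.3 CPM in maternal-high and 44.3 CPM in maternal-low oocytes (most abundant Gng13, none of the 10 at 0). They were at 1020 CPM in the other 4772 P1 cells, whose most abundant was Fst. Kitl and Wnt6 are among the 10 and were capped by the selection, so this difference was partly set by it. All 7 measured markers outside the selection were also at least 2-fold lower in oocytes than in those cells. Erythroid markers summed to 3408 and 5505 CPM (most abundant Hbb-bs), stromal markers to 74.6 and 183 CPM, immune markers to 41.6 and 97.1 CPM, endothelial markers to 6.60 and 18.995 CPM, and epithelial markers to 6.21 and 6.63 CPM. In maternal-high cells Lhx2, Cdh5, Kdr, Cx3cr1 and Ptprc had no UMI, and in maternal-low cells Emcn had none. No pregranulosa marker reached 20 CPM, while erythroid, stromal, immune and endothelial transcripts were lower in maternal-high cells, and their part in the results was not tested. Mitochondrially encoded genes held 4.85% of the UMIs of maternal-high and 5.01% of those of maternal-low cells. Per cell the share ran from 1.70 to 16.3% (median 4.70) and from 0.0511 to 62.9% (median 4.63), so the extremes were among maternal-low cells. Scrublet called 8 of the 221 oocytes as doublets, all maternal-low. Of the oocytes' barcodes, 4 were also used in the E12.5 library, 2 of them by oocytes there, 2 at E14.5, 1 at E11.5 and 1 at P5. Without them 53 maternal-high and 160 maternal-low cells were left.

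The class with maternal transcripts was absent before birth at this depth and was nearly the whole class at P5. By the same thresholds E18.5 gave 390 oocytes (11.47% of its cells with at least 1000 genes), with 0 maternal-high (exact upper limit 0.941%). The highest E18.5 cell had 7 maternal UMIs, and the median depth was 12310.5 UMIs. At P5, 56 of 59 oocytes (94.9%, 85.9 to 98.9%) were maternal-high, with a median of 191 maternal UMIs over the 59 cells, a highest cell of 1994, and a median of 62584 UMIs in the 56 cells. Thinned to 5000 UMIs, 49 of 58 P5 oocytes (84.5%, 72.6 to 92.7%) and 0 of 365 at E18.5 (up to 1.01%) had 5 or more maternal UMIs, against the 7.25% at P1. These shares count the UMIs that chose the class, and their intervals run over the cells of 1 library each, so they describe the libraries and are no test between ages. The 4 younger libraries, with 5 oocytes in the youngest and 2459 at E14.5, had 0 maternal-high cells. With 0 maternal-high cells at E18.5 and 3 maternal-low cells at P5, the split within P1 could not be repeated in another library.

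**Figure D2:**
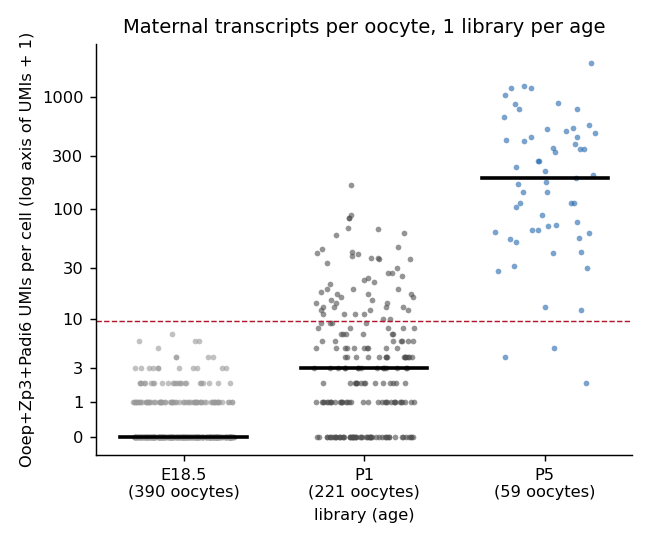
UMIs of Ooep, Zp3 and Padi6 per oocyte at E18.5, P1 and P5, 1 point per cell (1 library per age), with the medians as bars and a dashed line under the threshold of 10 UMIs (y axis, log axis of UMIs + 1). No E18.5 oocyte is above 7 UMIs, P1 oocytes lie on both sides, and 56 of 59 P5 oocytes are above the line.

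Between the classes at P1, outside the genes of the split, maternal-high cells were at least 2-fold higher in 3 of 5 measured maternal complex genes and in both measured zona and secreted factor genes, Zp2 and Gdf9. Of 8 measured oocyte transcription factors 1, Pou5f1, was past 2-fold, and a few meiotic genes were at least 2-fold lower. Of the higher genes in these lists Nlrp14, Gdf9 and Pou5f1 reached 20 CPM in maternal-high cells alone. They were thus measured through the class where they were high. The same held for several of the highest ranked genes given below. Among 6143 genes with at least 20 CPM in either class, 172 (2.8%) were at least 2-fold higher in maternal-high cells and 185 (3.01%) at least 2-fold lower, with a median ratio of 1.01. Because the split chose the cells, these ratios describe the classes and are no test of them.

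Of the 5 measured members of the subcortical maternal complex and its partners that the split did not use, 3 were past 2-fold, all higher. Tle6, a core subunit, ran from 0 to 63 UMIs per maternal-high cell (mean 19.3) and from 0 to 32 per maternal-low cell (mean 2.84). Its level was 404 CPM against 143, a ratio of 2.82 (2.53 to 3.15), or 2.53 at 20000 to 60000 UMIs. The cells overlapped, but the means were well apart. Nlrp14, of the same protein family as the core subunit Nlrp5, was found in 40.7% of maternal-high and 4.79% of maternal-low cells, at 29.1 and 3.32 CPM (ratio 8.78, 4.64 to 18.3), or 6.39 in the depth window. Nlrp4f was at 133 and 49.7 CPM (2.68, or 2.996 in the window). In cells thinned to 5000 UMIs, with 14 maternal-high cells, Nlrp4f was below the fold at 1.56. Nlrp14 was at 2.13 there, from few UMIs. Nlrp5 (MATER) was below the fold, at 173 and 87.7 CPM (1.97, 1.70 to 2.29, or 1.52 in the window). Zbed3 was also below it, at 240 and 154 CPM (1.56). In the thinned cells, though, Nlrp5 was past the fold at 2.999. Khdc3 was under the floor of 20 CPM in both, at 13.98 and 2.41 CPM, and Nlrp2 had no UMI in either.

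Of the zona and secreted factor genes, Gdf9, a growth factor that oocytes send to granulosa cells, ran from 0 to 14 UMIs in maternal-high cells (median 3) and from 0 to 4 in maternal-low cells (median 0). It was detected in 79.6% and 14.4% of them, at 79.2 and 13.0 CPM (ratio 6.11, 4.38 to 8.70), or 5.01 in the depth window. In the 1532 stromal cells the share was 0.326%. Zp2, the second egg coat glycoprotein, was detected in 98.1% of maternal-high and 38.3% of maternal-low cells, at 147 and 56.4 CPM (2.60, 2.18 to 3.12), or 2.09 in the window and 1.93, below the fold, in thinned cells. Zp1, which crosslinks the coat, stayed under 20 CPM at 10.9 and 2.11 CPM. Oosp1, Oosp3, Bmp15 and Fgf8 had no UMI in either class.

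The transcription factors behaved otherwise. Figla ran from 7 to 124 UMIs in maternal-high cells (median 73.5) and from 0 to 118 in maternal-low cells (median 31), and as a level it was at 1582 and 1781 CPM, a ratio of 0.888 (0.853 to 0.924), or 0.902 in the depth window. The higher count per cell was thus matched by the greater depth. Sohlh1 was at 749 and 632 CPM (1.19, 1.11 to 1.26), Nobox at 174 and 177 CPM (0.981), and Lhx8, a LIM homeobox factor of early oocytes, at 299 and 313 CPM (0.958). Of the 8 measured factors 1 was past 2-fold, with a median ratio of 0.937: Pou5f1 (OCT4), the pluripotency factor that growing oocytes use again, at 51.3 and 12.7 CPM (4.05, 2.84 to 5.87), or 3.22 in the window.

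Among 6 measured genes of stored mRNA and its translation outside the selection, 1, Dppa3 (STELLA), was past 2-fold. Dppa3 is a maternal factor that protects the DNA methylation of the maternal genome. It ran from 4 to 360 UMIs in maternal-high cells (median 167) and from 0 to 188 in maternal-low cells (median 18), at 3679 and 1802 CPM (2.04, 1.98 to 2.11), but 1.75 in the depth window, below the fold. Ybx2, which coats stored mRNA, was at a ratio of 1.47, Lsm14b at 1.45 and the helicase Ddx6 at 1.36. Of 12 measured germ granule and piRNA genes outside the selection, 1 was higher and 1 lower. Gtsf1 was at 1177 and 517 CPM (2.27, or 1.85 in the window) and Asz1 at 56.3 and 127 CPM (0.443). Gtsf1 assists piRNA-guided silencing, and Asz1 holds germ granules at mitochondria.

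**Figure D3:**
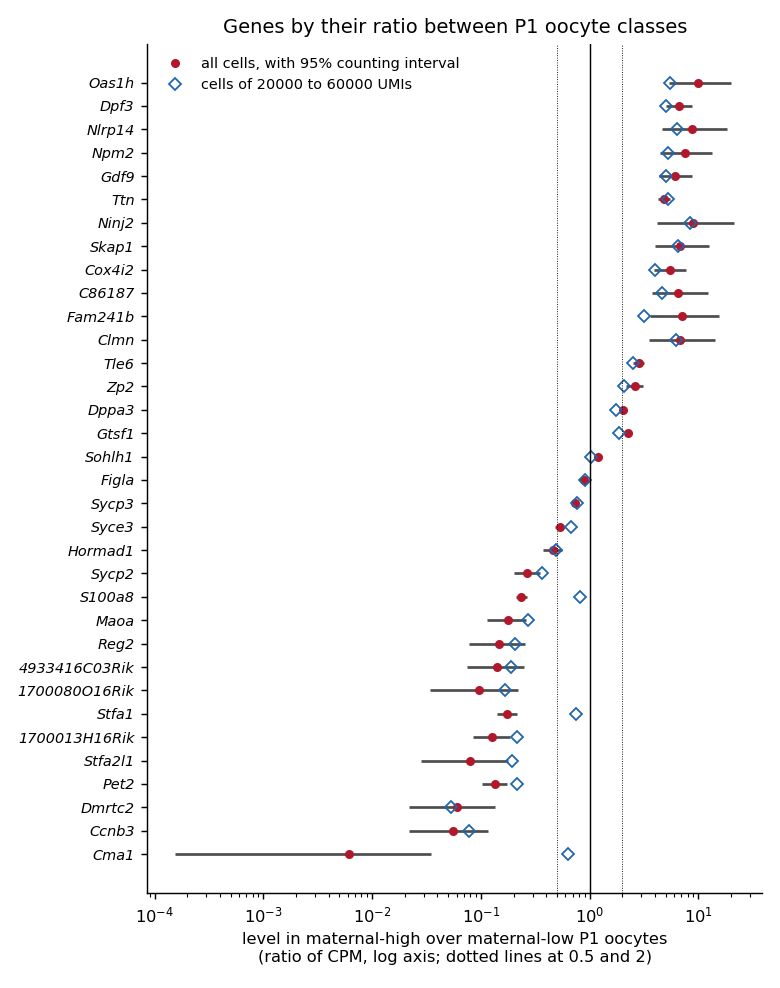
Ratio of level (CPM) in maternal-high over maternal-low P1 oocytes for named genes (x axis, log axis, dotted lines at 0.5 and 2), with 95% exact intervals for counting error and diamonds for the ratio in cells of 20000 to 60000 UMIs. Gdf9 (6.11) and Tle6 (2.82) lie to the right of the upper line, Figla (0.888) near 1, and Sycp2 (0.267) and Ccnb3 (0.0550) to the left of the lower line.

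The 12 genes ranked highest outside the 7 genes of the selection, by the end of the interval nearest to 1, were led by Oas1h, a member of the 2′-5′ oligoadenylate synthetase family. It ran from 0 to 9 UMIs in maternal-high cells (median 1) and from 0 to 2 in maternal-low cells (median 0), at 35.7 and 3.62 CPM (9.87, 5.39 to 19.8), or 5.46 in the depth window. Dpf3, a subunit of a chromatin remodelling complex, was at 129 and 19.6 CPM (6.60, 5.05 to 8.75; window 5.09), and was detected in 79.6% and 19.2% of cells. The histone chaperone Npm2, needed for the chromatin of the zygote, was at 38.4 and 5.13 CPM (7.50, 4.46 to 13.4; window 5.22), with 25.3% of the maternal-high UMIs in 1 cell. Ttn, the giant titin gene of muscle, had 0 to 147 UMIs (median 14) and 0 to 35 (median 0), at 443 and 91.7 CPM (4.83, 4.26 to 5.50; window 5.31). Cox4i2, an alternative subunit of cytochrome oxidase, was at 74.2 and 13.6 CPM (5.47, or 3.98 in the window). It was the 1 gene of 85 measured nuclear oxidative phosphorylation genes past 2-fold. Of the 83 with at least 20 CPM in both classes 0 were past it. Oas1h, Dpf3, Npm2 and Cox4i2 reached 20 CPM in maternal-high cells alone, so they were measured through the class where they were high. Gdf9 and Nlrp14 were also among the 12, and the other 5 were Ninj2, an adhesion protein (8.85), the adaptor Skap1 (6.84), the noncoding C86187 (6.53), Fam241b (7.08) and Clmn (6.79). In the window these 5 ratios ran from 3.19 for Fam241b to 8.31 for Ninj2. Oas1 genes lie as near-identical copies in a cluster, so their separate levels are uncertain.

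Meiotic prophase genes were on the lower side, though only a few passed 2-fold. Of 7 measured synaptonemal complex genes 1 was at least 2-fold lower in maternal-high cells and the median ratio was 0.713. Sycp2, of the lateral elements, was found in 55.6% of maternal-high and 64.7% of maternal-low cells, at 24.5 and 91.7 CPM (0.267, 0.200 to 0.351), or 0.366 in the window. Syce3, of the central element, was at 283 and 534 CPM (0.530), Sycp1, of the transverse filaments, at 1165 and 1698 CPM (0.687), and Sycp3 at 1719 and 2339 CPM (0.735). Sycp3 had 11 to 172 UMIs per maternal-high cell (median 78.5) and 0 to 180 per maternal-low cell (median 39), so its lower level was not a lower count per cell. Of 10 measured recombination genes 2 were lower, Meiob (5.44 and 22.0 CPM, 0.247), which binds single-stranded DNA, and the crossover helicase Hfm1 (9.32 and 30.5 CPM, 0.306), with a median ratio of 0.653, and both reached 20 CPM in maternal-low cells alone. In the window these 2 were at 0.361 and 0.411, but Hfm1 turned to 1.11 in cells thinned to 5000 UMIs. That value rests on few UMIs, as 14 maternal-high cells were left there. Hormad1, a chromosome axis protein, was at 56.7 and 124 CPM (0.459, 0.377 to 0.555; window 0.491), the 1 of 8 measured HORMA and checkpoint genes past 2-fold, in a list whose median ratio was 1.12, with the kinase Chek1 at 1.72 and Trp63 at 1.76. Cohesin genes (6 measured, median 0.877), Kit and PI3K genes (11, median 0.992), DNA methylation genes (5, median 1.31) and apoptosis genes (4, median 1.12) had 0 past 2-fold. Kit itself, the receptor through which somatic Kit ligand reaches oocytes, was at 313 and 239 CPM (1.31). Among 8 measured proliferation genes Ube2c was higher (739 and 308 CPM, 2.40) and Top2a lower (24.9 and 56.4 CPM, 0.441), so that list had no common direction. Top2a was within 2-fold in the window (0.639) and without the oocytes richest in foreign markers (0.552).

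Among the 12 lowest ranked genes several lie on the X chromosome. Ccnb3, a meiotic cyclin, had 0 or 1 UMI in each maternal-high cell and 0 to 11 in maternal-low cells, at 2.72 and 49.4 CPM (0.0550, 0.0218 to 0.116), or 0.0779 in the window. Pet2 was at 24.5 and 182 CPM (0.135; window 0.215) and Maoa, a monoamine oxidase, at 10.9 and 61.5 CPM (0.177; window 0.272). The X-linked 1700013H16Rik (0.127; window 0.214) and 1700080O16Rik (0.0966; window 0.167) were also among them, as were the autosomal Dmrtc2 (2.33 and 38.3 CPM, 0.0608; window 0.0532), a factor of meiotic prophase, and 4933416C03Rik (0.142; window 0.189) and Reg2 (0.147; window 0.205). Of 220 measured X-linked genes 31 (14.1%) were at least 2-fold lower and 4 (1.82%) at least 2-fold higher in maternal-high cells, against 3.01% lower over all genes, and the highest share lower on any autosome was 4.76%, on chromosome 16. Most of the 31, among them Ccnb3 and Maoa, reached 20 CPM in maternal-low cells alone. These were measured through the class where they were high. In cells of 20000 to 60000 UMIs 27 of 217 (12.4%) were lower, against 2.02% over all genes. Taf7l, an X-linked germ cell form of a general transcription factor subunit, had 0 to 50 UMIs (median 12) in maternal-high and 0 to 79 (median 14) in maternal-low cells, at 324 and 830 CPM (0.390, 0.361 to 0.422). The share of all UMIs from the X chromosome was nonetheless close, at 3.01% and 3.27%, and the median ratio of X-linked genes was 0.902. Xist, the RNA that silences an X chromosome, was at 27.96 and 63.0 CPM, against 1591 CPM in the other P1 cells. The X-linked count was set after the leading genes were seen.

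Some of the lowest genes belong to blood and mast cells, and their UMIs came from few cells. Cma1, the mast cell chymase, had 98.1% of its maternal-low UMIs in 1 cell, and its ratio of 0.00616 was 0.311 without the cells called by Scrublet. Stfa1, a protease inhibitor of myeloid cells, was at 40.8 and 233 CPM (0.175) with 68.2% in 1 cell, Stfa2l1 (0.0789) had 65.3% in 1 cell, and the neutrophil gene S100a8, at 129 and 545 CPM (0.236), had 58.8% in 1 cell. Without the 10% of oocytes richest in foreign markers the ratios were 0.666 for Stfa1 and 0.710 for S100a8, within 2-fold, but 0.00594 for Cma1 and 0.207 for Stfa2l1. In the window of 20000 to 60000 UMIs they were 0.744, 0.809, 0.639 and 0.192 in the same order, so Stfa2l1 stayed past 2-fold in both. S100a8 also had a UMI in 66.6% of stromal cells. Of 4 measured stromal markers 3 were lower, Col1a1, Col1a2 and Col3a1, at 0.426, 0.596 and 0.508 without those cells. All 4 reached 20 CPM in maternal-low cells alone, so they were measured through the class where they were high.

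**Figure D4:**
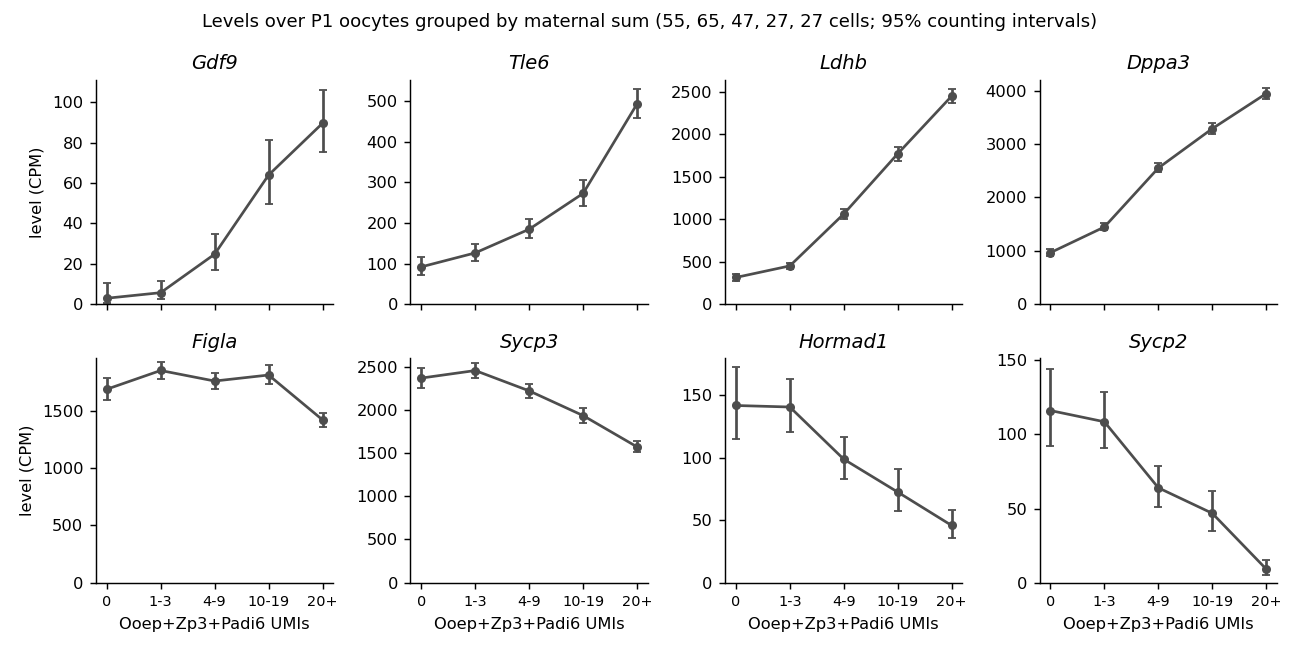
Level (CPM) of 8 genes outside the split in P1 oocytes grouped by their Ooep, Zp3 and Padi6 UMIs (0, 1 to 3, 4 to 9, 10 to 19, 20 or more), with 95% exact Poisson intervals, 1 panel per gene with its own axis from 0. Gdf9, Tle6, Ldhb and Dppa3 are higher in each further group, Sycp2 and Hormad1 are lower, and Figla stays between 1423 and 1854 CPM.

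For most of the genes plotted, levels differed between groups on the same side of the threshold as well as across it. In the cells with 0, 1 to 3, 4 to 9, 10 to 19 and 20 or more maternal UMIs (55, 65, 47, 27 and 27 cells, with median depths of 12446, 18153, 27943, 40328 and 55488 UMIs), Gdf9 was at 2.87, 5.63, 24.7, 64.0 and 89.7 CPM. Tle6 was at 91.7, 126, 185, 273 and 494 CPM, and Dppa3 at 963, 1445, 2551, 3289 and 3947 CPM. Sycp2 went the other way, at 116, 109, 64.0, 46.8 and 9.16 CPM, as did Syce3, at 671, 562, 440, 330 and 251 CPM. Within the maternal-low class, then, cells with more maternal transcripts already differed from those with 0. Npm2 was below 10 CPM in the first 4 groups and at 58.2 CPM in the last, and Oas1h at 0, 0.80, 7.999, 14.3 and 50.4 CPM. By ratio, others had their widest gap at the threshold: Ccnb3 was at 54.5, 79.6, 19.6, 2.86 and 2.62 CPM, and Ttn at 60.2, 69.9, 127, 378 and 488 CPM. Nlrp5 was lower just above the threshold than just below it, at 27.2, 46.6, 156, 116 and 212 CPM. Figla showed no order, at 1690, 1854, 1762, 1814 and 1423 CPM.

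Across the 193 oocytes thinned to 5000 UMIs, the genes whose UMIs were most like the maternal sum by Spearman's rho, among 5750 genes with at least 20 CPM, were Ldhb (0.568), Gtsf1 (0.505), Dppa3 (0.488), Tmsb10 (0.475), Actb (0.468), Rdx (0.466), Tmem14c (0.465) and Ttn (0.439). These are descriptions over cells of 1 library. Thinning gave each cell the same number of UMIs, but a gene's share may still go with the original depth, which was not tested. Ldhb, a lactate dehydrogenase subunit, had 10 to 254 UMIs per maternal-high cell (median 93) and 0 to 121 per maternal-low cell (median 3), at 2171 and 674 CPM (3.22, 3.07 to 3.39; window 2.52). Tmsb10, an actin-binding thymosin, was at 4046 and 2065 CPM, and Actb, cytoplasmic actin, at 1687 and 1003 CPM. Rdx, radixin, which ties actin to the membrane, was at 1729 and 1098 CPM. Ldhb and Actb are not particular to oocytes. Ldhb was at 971 CPM in P1 pregranulosa cells, above its maternal-low level. In the other P1 cells Actb was at 2235 CPM, above both classes, while Tmsb10 (650 CPM) and Rdx (243 CPM) were lower. The most opposite were Taf7l (-0.451), 4930447C04Rik (-0.433), the ribosomal protein genes Rps20 (-0.428), Rps28 (-0.423) and Rpl23a (-0.418), Ccdc73 (-0.398), Tdrkh (-0.380) and Pet2 (-0.376). As a group the 82 measured ribosomal protein genes had a median ratio of 0.922 between the classes and 0 past 2-fold.

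From P1 to P5, the maternal-high cells of the 2 libraries (54 and 56) were compared. They share the P1 cells with the split above, so the values stand side by side and neither supports the other. Of 6386 measured genes 505 (7.91%) were at least 2-fold higher at P5 and 329 (5.15%) at least 2-fold lower. The cells at P5 were deeper, at a median of 62584 UMIs against 44661. In the window of 20000 to 60000 UMIs, with 18 cells of P5 and 41 of P1, 41 of 50 named or listed genes past 2-fold stayed past it, 8 kept the direction under it and 1 reversed. The genes of the split, which are part of the selection, were at 3149 and 255 CPM for Ooep, 1548 and 186 CPM for Padi6, and 1186 and 215 CPM for Zp3.

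Both zona and secreted factor genes outside the selection with at least 20 CPM at both ages, Gdf9 and Zp2, were past 2-fold higher at P5. Gdf9 was at 484 CPM at P5 and 79.2 at P1 (6.11, 5.28 to 7.11), but at 1.97 in the window, below the fold. Zp2 was at 684 and 147 CPM (4.66; window 2.11). Zp1, Oosp2 and Oosp1 reached that floor at P5 alone, so that their being past 2-fold was largely set by the floor. Zp1 was at 248 and 10.9 CPM (22.8; window 7.13). Oosp2, an oocyte-secreted protein, was at 55.6 and 2.72 CPM (20.4; window 8.57). Oosp1 had no UMI in the maternal-high cells of P1 and was at least 22.7-fold higher at P5, with 47.8% of its UMIs in 1 cell. Of the 5 maternal complex genes with at least 20 CPM at both ages 4 were higher, among them Nlrp14 (367 and 29.1 CPM, 12.6; window 5.32) and Tle6 (845 and 404 CPM, 2.09), which was at 1.77 in the window, and Nlrp5 (2.07), at 1.25 in the window, both below the fold. Khdc3 reached the floor at P5 alone (159 and 13.98 CPM, 11.3; window 2.60). Zbed3 was counted at 481 and 240 CPM (2.0005), but in cells of 20000 to 60000 UMIs its direction reversed (log2 ratio -0.15). The RNA regulators Zar1 (161 and 2.72 CPM, 59.4, 28.6 to 148; window 4.67), Btg4 (121 and 9.32 CPM, 13.0; window 7.91) and Eif4e1b, with no UMI at P1 (at least 30.8-fold), were among the 4 of 10 stored mRNA genes outside the selection that were at least 2-fold higher, with 0 lower. All 4 reached 20 CPM at P5 alone, and of the 6 with at least 20 CPM at both ages 0 were past 2-fold. Elobl (139 and 1.55 CPM, 89.7, 34.8 to 331) ranked highest, followed among others by Oas1d (43.7), Oas1c (31.1), Khdc1b (33.3) and E330034G19Rik (40.5). In single cells, 29.1% of the P5 UMIs of Elobl, 37.7% of those of Zar1 and 56.6% of those of Eif4e1b came from 1 cell each.

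Of 8 measured oocyte transcription factors 1 was at least 2-fold higher at P5, Pou5f1 at 187 and 51.3 CPM (3.65), and 1 at least 2-fold lower, Foxo3 at 85.6 and 185 CPM (0.462). Nobox was at 311 and 174 CPM (1.79), Sohlh1 at a ratio of 0.901 and Figla at 0.704. Dppa3, which already differed within P1, was at 1.21. The cell cycle inhibitor Cdkn1b (4.21) and the phosphatase Cdc25b (6.27) were higher. So were the DNA methylation genes Dnmt3a (2.46, but 1.498 in the window) and Uhrf1 (2.45, or 2.11 in the window). Cdkn1b, Cdc25b and Dnmt3a reached 20 CPM at P5 alone, so they were measured through the age where they were high. The kinase receptor Kit (0.565) was within 2-fold.

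On the lower side, 3 of 7 synaptonemal complex genes were past 2-fold (median 0.560). Syce3 was at 45.3 CPM at P5 and 283 at P1 (0.160), Sycp1 at 436 and 1165 CPM (0.374) and Sycp2 at a ratio of 0.325. Sycp2 reached 20 CPM at P1 alone, and of the 6 with at least 20 CPM at both ages 2 were lower. Hormad1 was at 0.311 and the meiotic cohesin Stag3 at 0.337. In cells thinned to 5000 UMIs, however, both were higher at P5. The P1 class holds 14 cells there, so genes this low rest on few UMIs and their direction is uncertain. Hormad1 also reached 20 CPM at P1 alone. Of 6 HORMA and checkpoint genes with at least 20 CPM at both ages 0 were past 2-fold. Tex101, a germ cell surface protein, had no UMI at P5 and 87.0 CPM at P1, which puts P5 at no more than 0.0101 of P1 by the floor of 3 UMIs over the class. Taf7l was at 9.41 and 324 CPM (0.0291) and the X-linked Nxf2 (0.0298) and Rhox5 (0.0286, 0.00337 to 0.108, from 2 UMIs at P5) and the autosomal Ly6k (0.0307, 0.00619 to 0.0933, from 3 UMIs at P5) were also among the 8 lowest. Of 214 measured X-linked genes 33 (15.4%) were lower, against 5.15% of all, while between E18.5 and P1 in maternal-low cells 21 of 240 (8.75%) were lower at P1 and 20 (8.33%) higher, near the 6.76% and 7.76% over all genes. The neutrophil genes Camp (0.0388) and Ngp (0.0683) and Car2 (0.0666) of red cells completed the 8. Erythroid markers summed to 1461 CPM at P5 and 3408 at P1 (4 of 5 lower) and immune markers to 10.6 and 41.6 CPM, while pregranulosa markers were at 40.0 and 42.3 CPM and stromal markers at 89.998 and 74.6 CPM, and their part in the result was not tested.

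**Figure D5:**
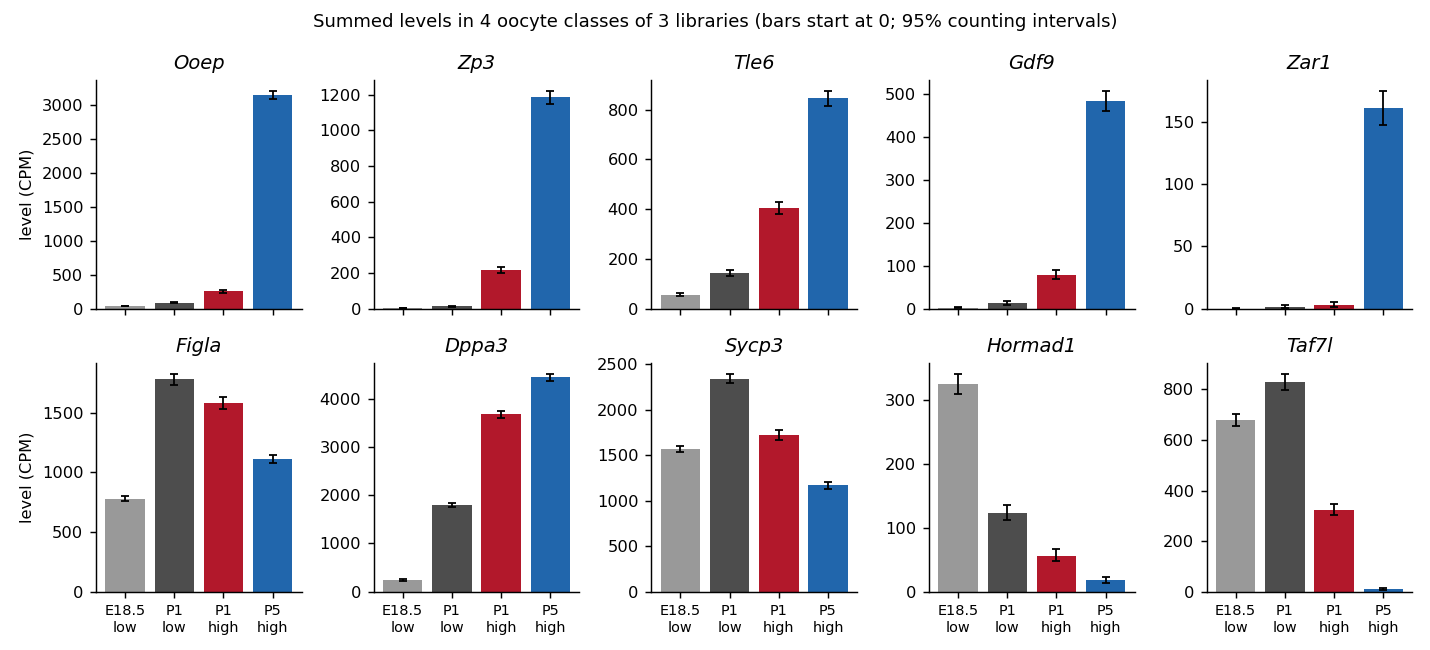
Level (CPM) of 10 genes in 4 oocyte classes in order of age (E18.5 maternal-low, P1 maternal-low, P1 maternal-high, P5 maternal-high; 390, 167, 54 and 56 cells), as bars from 0 with 95% exact Poisson intervals, 1 panel per gene. Gdf9 runs from 1.78 CPM at E18.5 to 484 CPM at P5, Hormad1 from 326 to 17.7 CPM, and Figla is highest in maternal-low cells of P1. Ooep and Zp3 belong to the split.

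From E18.5 to P1, maternal-low cells (390 and 167, median depths 12310.5 and 18391 UMIs) were compared, again with cells used above. Of 6445 measured genes 500 (7.76%) were at least 2-fold higher at P1 and 436 (6.76%) at least 2-fold lower. Within ranges of depth, of the named or listed genes past 2-fold, 45 of 65 stayed past it in cells of 5000 to 20000 UMIs (66 of P1 and 325 of E18.5) and 50 of 64 in cells of 20000 to 60000 UMIs (72 and 40), and the others kept the direction under it. Of 7 measured oocyte transcription factors 4 were past 2-fold, all higher at P1. Figla was at 1781 CPM at P1 and 781 at E18.5 (2.28, 2.19 to 2.37), Sohlh1 at 632 and 270 CPM (2.34), Nobox at 177 and 88.3 CPM (2.01) and Foxo3, which restrains primordial follicle activation, at a ratio of 2.19. Lhx8 was at 1.74. Nobox lay at the line, and was at 1.94 after division by the median ratio of all measured genes (1.04), which leaves 3 past 2-fold. In cells of 20000 to 60000 UMIs all 4 were below the fold, with Figla at 1.74, Sohlh1 at 1.73, Nobox at 1.31 and Foxo3 at 1.74, and in cells of 5000 to 20000 UMIs Figla alone was past it (2.34).

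Maternal transcripts were already higher in P1 cells below the threshold. Of 4 measured maternal complex genes outside the selection 4 were at least 2-fold higher, 2 of them with at least 20 CPM at both ages. Outside Ooep and Padi6, Nlrp5 was at 87.7 and 4.95 CPM (17.7, 11.8 to 27.8; 14.3 in the deeper window) and Tle6 at 143 and 55.6 CPM (2.57; 2.11). Zp2 was at 56.4 and 4.55 CPM (12.4; 10.54), Dppa3 at 1802 and 243 CPM (7.42, 6.98 to 7.89; 3.88) and Ldhb at 674 and 55.8 CPM (12.1; 9.56). Gdf9 was under 20 CPM in both, at 13.0 and 1.78 CPM. Nlrp5 and Zp2 above and Trp63 below reached 20 CPM at P1 alone, and were measured through the age where they were high. Kit was at 239 and 94.8 CPM (2.52, but 1.59 in the deeper window), and the mRNA repression partners Lsm14b (3.002) and Ddx6 (2.99) and Trp63 (25.6 and 8.71 CPM, 2.94), the p63 guardian of oocyte DNA, were higher, though Trp63 was at 1.82 in cells of 5000 to 20000 UMIs.

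Of 14 measured recombination genes 6 were at least 2-fold lower at P1, 4 of which reached 20 CPM at E18.5 alone. Spo11, which makes the meiotic DNA breaks, was at 15.4 and 81.0 CPM (0.190), Msh4, of the crossover pathway, at 3.02 and 25.9 CPM (0.116), Dmc1, the meiotic strand exchange protein, at a ratio of 0.402 (0.519 in the deeper window), and Rad51ap2 at 0.328. Hormad1 was at 124 and 326 CPM (0.380), Syce3 at 534 and 1090 CPM (0.490, but 0.623 in the shallower window) and Ccnb3 at 49.4 and 168 CPM (0.295), while Syce2, of the central element, was higher at 752 and 359 CPM (2.09, but 1.88 and 1.58 in the deeper and shallower windows), and Sycp1 (0.916) and Sycp3 (1.49) were within 2-fold. The summed level of ribosomal protein genes was 215249 CPM at P1 and 305737 CPM at E18.5 (0.704). The histone gene Hist1h2ap was at 23.5 and 166 CPM (0.142). Pycard (0.104), Syt11 (0.132) and the gene models AC160336.1 (0.0708), Olfr678 (0.0735) and Gm42681 (0.0853) were also among the 8 lowest.

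The 8 genes ranked highest at P1 were all ones that neutrophils or other myeloid cells express. Stfa1 was at 233 CPM at P1 and 0.594 at E18.5 (392, 134 to 1907) and S100a8 at 545 and 9.70 CPM (56.2), with 68.2% and 58.8% of their P1 UMIs in 1 cell each, and the others were BC100530, S100a9, Camp, Ngp, Gm5483 and Lcn2. Without the 10% of oocytes richest in foreign markers in each library the ratios were 141 for Stfa1 and 19.4 for S100a8, and S100a8, as given above, was also found in stromal cells of P1. Immune markers summed to 97.1 CPM at P1 and 14.3 at E18.5, erythroid markers to 5505 and 3705 CPM, stromal markers to 183 and 117 CPM, and pregranulosa markers to 44.3 and 106 CPM, and their part in the result was not tested.

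Against the other 4772 P1 cells, oocytes differed in so many genes that a 2-fold difference sets few apart. Of 7256 measured genes 2369 (32.6%) were at least 2-fold higher and 1635 (22.5%) at least 2-fold lower in oocytes. The meiotic genes Sycp1 (1465 CPM in oocytes and 6.14 in the others) and Smc1b (1941 and 8.82 CPM), a meiotic cohesin, were far higher in oocytes. So was the germ cell gene Stk31 (382 and 1.94 CPM). The others include the 19 cells with 2 or 3 UMIs of Dazl and Ddx4, and the source of germ cell transcripts in them was not tested. Nuclear oxidative phosphorylation genes summed to 49336 and 23200 CPM (2.13), with 49 of 85 higher. All 10 measured dissociation stress genes, such as Fos and Jun, were lower, with summed levels of 385 and 5933 CPM. Meg3, a maternally expressed noncoding RNA, was at 60.1 and 1705 CPM. The other cells had a median of 7638.5 UMIs and 2453 genes, so oocytes were also the deeper cells, and a fold on CPM compares shares of a cell's RNA and not amounts per cell.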

How the data were processed

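Single cells of mouse ovaries were captured by the authors with 10x Genomics v2 chemistry, and the files they deposited hold counts of UMIs (31053 genes by cells) made with Cell Ranger 3.1.0 on mm10 and not normalized. All 7 libraries were read, with ages from the labels, and the E18.5, P1 and P5 libraries were compared. Positions are from GENCODE vM21 on GRCm38 and promoters from RefSeq on GRCm38.p6.

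Oocytes were chosen by the thresholds given above. Members, marker lists and gene lists were chosen with earlier results of these data known, so none is independent evidence. Counts were summed over the cells of a class and divided by the class total. A gene was measured in a comparison if it had at least 20 CPM in either class, and 2-fold was the line for being higher or lower. With 1 library per age no test was run. Named genes were the 12 highest and 12 lowest of the split and the 8 highest and lowest between ages, ranked by the end of the 95% interval of the ratio nearest to 1, without the 7 genes of the selection, plus list members and the 8 genes most like the maternal sum. A gene among the lowest at P1 against E18.5 is not reported here. The X-linked count, the window of 20000 to 60000 UMIs and the sets without oocytes rich in foreign markers or with shared barcodes were added after the values were seen. Thinning drew UMIs without replacement to 5000 per cell. Doublets were kept, and Scrublet in scanpy 1.11.5 marked 164 P1 cells for an alternative without them. The scripts were tested on simulated data. Python 3.11.15, numpy 2.4.6, scipy 1.17.1, pandas 2.3.3 and matplotlib 3.10.9 were used.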

Additional observations from a re-analysis of the deposited data

How the results depend on the processing

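Every level rests on 1 library per age, and animals, days and dissociations cannot be separated from age. The classes differ in depth, so low genes are better measured in maternal-high cells. The P1 oocyte share was 4.42%, and moved to 5.09% with at least 2000 genes, 3.76% with at least 8 UMIs of Dazl and Ddx4, and 3.22% with no Kitl or Wnt6 UMI. The maternal-high share of 24.4% moved to 16.1% with no Kitl or Wnt6 UMI, 38.9% and 12.2% with thresholds of 5 and 20 UMIs, 7.25% thinned to 5000 UMIs, and 2.94% and 36.3% in cells of 5000 to 20000 and 20000 to 60000 UMIs. In the latter the depth ratio was 1.46 in place of 2.43.

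With a floor of 5 CPM, 494 genes were higher and 599 lower in maternal-high cells, 1241 and 589 at P5, and 870 and 1246 at P1 against E18.5; with a floor of 50 CPM these were 76 and 73, 227 and 182, and 299 and 133. Thinned to 5000 UMIs, with 14 maternal-high cells, they were 1098 and 1034 in the split and 1503 and 1263 at P5. The other settings kept these counts within 1.5 times. In cells of 20000 to 60000 UMIs, 130 and 124 genes passed in the split, 111 and 94 of them shared with the 172 and 185. Of 43 named or listed genes past 2-fold in the split, 35 stayed past it in that window and 8 kept the direction under it. At P5 41 of 50 stayed past it there, and at P1 against E18.5 50 of 64, or 45 of 65 in cells of 5000 to 20000 UMIs. Thinned to 5000 UMIs, 22 of 32 in the split, 28 of 42 at P5 and 60 of 64 at P1 against E18.5 stayed past it. Cells of 5000 to 20000 UMIs gave no split, as fewer than 10 were maternal-high.

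Among the named or listed genes past 2-fold, a few reversed direction, given here on the log2 scale. Cma1 reversed in the split (5.05 with a threshold of 5 UMIs) and Zbed3 at P5 (-0.15 in cells of 20000 to 60000 UMIs). In cells thinned to 5000 UMIs, Hfm1 reversed in the split (0.15). In such cells Hormad1 and Stag3 (0.78 each), Trip13, Stag1 and Ndufaf1 (0.19 each) and Wee2 (-0.81) reversed at P5. The 14 thinned maternal-high cells of P1 hold few UMIs of genes this low, so these directions are uncertain. For Cma1, 1 cell with 98.1% of its UMIs changed class; for the others the cause was not tested. No paired analysis was possible because each age is 1 library.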
